A study of Mus musculus with 2 samples.

Results

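The C/EBP genes *Cebpa*, *Cebpb*, *Cebpd* and *Cebpg* were taken by their symbols from the deposited tables, and all 4 were found among the 25810 named genes listed in both libraries. Their products, C/EBPα, C/EBPβ, C/EBPδ and C/EBPγ, are basic leucine zipper (bZIP) transcription factors. The data were RNA-Seq profiles of mouse mammary epithelial cells (MECs) from inguinal glands at lactation day 3, with 1 library from WT mice and 1 from *Igfbp7*-/- mice. Per the methods, the glands were first dissociated into single-cell suspensions, and the part of this step in the levels was not tested. *Igfbp7* encodes a secreted protein that binds insulin-like growth factors and insulin, and the knockout lacks the first exon of the gene in the germline, so that every cell of the animal carries the deletion. Cells positive for CD45 (leukocytes) or Ter119 (erythroid cells) were removed magnetically before RNA extraction, as were cells positive for a further antigen that the methods call CD31 (endothelium) and the labels CD35. The labels give a C57BL/6 background for both libraries, whereas the methods describe knockout mice on CD1, and the number of animals behind each library is not given in the sources used here.

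C/EBP proteins bind DNA as dimers, with one another or with other bZIP proteins. In the mammary gland C/EBPβ is needed for alveolar development and acts with STAT5 and the glucocorticoid receptor at milk protein promoters, and C/EBPδ is a STAT3 target that is induced when milk removal stops and involution begins. C/EBPα drives adipocyte and hepatocyte differentiation. C/EBPγ has no activation domain of its own and works through its partners, among them ATF4. A single *Cebpb* mRNA is translated into long activating and short inhibitory isoforms, which read counts cannot separate.

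With 1 library per genotype there was no replicate error and no test of the genotype could be made, so each difference is one between these 2 libraries. Intervals given with the values are 95% intervals on read pairs, exact except for ratios between genes, cover counting error only and leave out any variation between animals. The authors gave the RPM, a count relative to all mapped reads of its library. The totals implied by the deposited counts and RPM were 34327854 mapped reads in WT and 35016847 in *Igfbp7*-/-. Of these reads 82.3% and 72.3% fell on the listed genes. The 7 milk protein genes took 12.4% of mapped reads in WT and 4.72% in *Igfbp7*-/-. The targeted gene followed the labels, with 5224 reads of *Igfbp7* in WT and 37 in *Igfbp7*-/-. Among luminal epithelial markers, 3 of 6 were at least 1.5 times higher in *Igfbp7*-/- and none lower, with a summed level of 1449 RPM in WT and 3287 RPM in *Igfbp7*-/-. Markers of basal epithelium (5 of 6 lower, sum 2942 and 958 RPM), fibroblasts (5 of 8, 10476 and 5665 RPM), endothelium (5 of 6, 1138 and 366 RPM), macrophages (8 of 10, 203 and 77.2 RPM) and lymphocytes (5 of 6, 61.6 and 22.8 RPM) had lower sums in *Igfbp7*-/-, and no marker in these 5 lists was higher by 1.5 times. By the same ratio 21.4% of the 14026 genes compared below were higher and 23.0% lower. Fewer cells of a type and less RNA per cell cannot be told apart in such bulk libraries.

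*Cebpb* had the largest difference of the 4 genes and was about doubled in level, *Cebpd* was about 1.5 times higher in *Igfbp7*-/-, *Cebpg* was slightly higher, and the interval of *Cebpa* on read pairs included no difference. A gene was counted as higher or lower where its 2 levels differed at least 1.5 times, after 0.1 RPM was added to each, and 14026 genes that reached 1 RPM in WT, in *Igfbp7*-/- or in both were compared. All 4 C/EBP genes passed that minimum, 2 of them were higher by the ratio and 0 lower, where 21.4% of all genes compared were higher and 23.0% lower, 44.5% in all. Among genes that reached 10 RPM, as all 4 did, 20.7% were higher and 20.4% lower, 41.1% in all. The median log2 ratio of the 4 was 0.45, beside 0.03 for all genes compared.

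*Cebpb*, the alveolar factor, had 1990 reads in WT and 3974 in *Igfbp7*-/-. This was 58.0 RPM (54.4 to 61.7) in WT and 113 RPM (109 to 119) in *Igfbp7*-/-, levels whose intervals do not meet. The ratio was 1.96 (1.81 to 2.11), a log2 ratio of 0.97 (0.86 to 1.08), and 10.2% of all genes compared had a higher ratio.

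*Cebpd*, the STAT3-induced factor, had 3188 reads in WT and 5005 in *Igfbp7*-/-. Its level was 92.9 RPM (88.4 to 97.5) in WT and 143 RPM (137 to 149) in *Igfbp7*-/-, and the intervals again lay apart. The ratio was 1.54 (1.44 to 1.64), a log2 ratio of 0.62 (0.53 to 0.71), so the interval of the ratio included the threshold of 1.5. For this gene 20.1% of all genes compared had a higher ratio.

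*Cebpg*, the partner without an activation domain, had 4766 reads in WT and 5861 in *Igfbp7*-/-. These were 139 RPM (133 to 145) in WT and 167 RPM (161 to 174) in *Igfbp7*-/-. The log2 ratio was 0.27 (0.19 to 0.35), beyond counting error but below the threshold, and 36.9% of all genes compared had a higher ratio.

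*Cebpa*, the adipocyte and liver factor, had the fewest reads, 912 in WT and 1028 in *Igfbp7*-/-. Its level was 26.6 RPM (24.2 to 29.1) in WT and 29.4 RPM (26.9 to 32.0) in *Igfbp7*-/-, and these intervals overlapped. The log2 ratio was 0.14 (-0.04 to 0.33), with an interval of 0.01 to 0.27 when single reads are counted, so whether it lies beyond counting error depends on the unit counted, and 43.8% of all genes compared had a higher ratio.

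**Figure D1:**
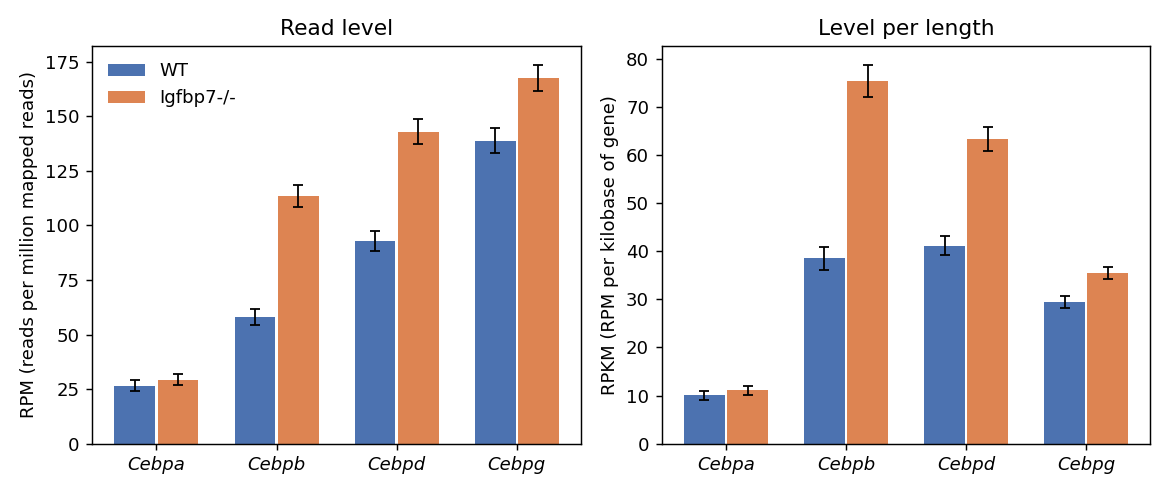
Levels of the 4 C/EBP genes in the WT and *Igfbp7*-/- libraries as RPM (left) and as RPM per kilobase of gene (RPKM, right), with bars for the single library of each genotype and error bars for the 95% exact Poisson interval on read pairs. *Cebpb* stood at 58.0 and 113 RPM and *Cebpd* at 92.9 and 143 RPM with intervals apart, whereas those of *Cebpa* overlapped.

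**Figure D2:**
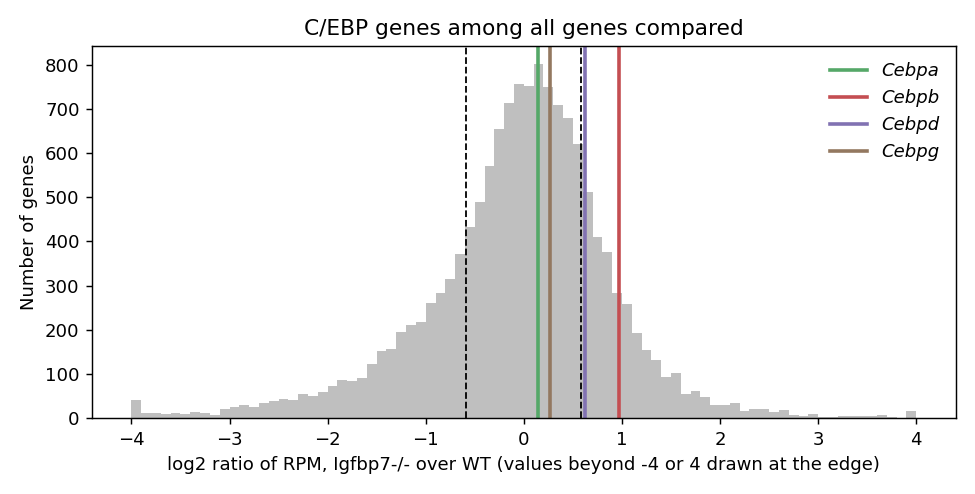
Histogram of the log2 ratio of RPM, *Igfbp7*-/- over WT, for the 14026 genes compared, with coloured lines at the C/EBP genes and dashed lines at a ratio of 1.5 in each direction. *Cebpb* (0.97) and *Cebpd* (0.62) lay beyond the upper dashed line, and *Cebpg* (0.27) and *Cebpa* (0.14) lay inside it.

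*Cebpa* and *Cebpg* are neighbours on mouse chromosome 7, 62.79 kb apart and on opposite strands. In the NCBIM37 (mm9) annotation *Cebpa* is a gene of 1 exon at chr7:35904312-35906945 on the plus strand, *Cebpg* has 2 exons at chr7:35831441-35841522 on the minus strand, and *Cebpb* has 1 exon at chr2:167514415-167515918 on the plus strand. *Cebpd* lies at chr16:15887379-15888559 on the plus strand, where that annotation has 1180 exonic bases and types the locus as a pseudogene, while the deposited tables list a protein-coding gene of 2260 bases. The exons of *Cebpa*, *Cebpb* and *Cebpd* had a GC content of 62.6%, 67.15% and 63.0%, and those of *Cebpg* 42.9%. Among genes compared with a GC value from annotated protein-coding transcripts, the quintile with the highest GC spanned 55.9% to 72.9%. It had a median log2 ratio of 0.14 and 26.6% of its genes higher, against 21.2% of all 12789 genes with a GC value. The GC content of *Cebpa* and *Cebpb* lies in that range. That of *Cebpd* does too, but a locus typed as a pseudogene is not among the protein-coding transcripts. The part of GC content in the C/EBP values was not tested.

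The promoters of the 3 genes with an entry in the RefSeq table (GRCm38.p6) are shown as the 250 bases before the start of the gene, 5′ to 3′ on the strand of the gene, because the neighbours *Cebpa* and *Cebpg* and the more strongly differing *Cebpb* can be compared letter by letter. *Cebpa* is at chr7:35119043-35119292 (plus strand), *Cebpb* at chr2:167688665-167688914 (plus strand) and *Cebpg* at chr7:35056567-35056816 (minus strand). Capitals mark the matches, on either strand, to 5 motifs: the C/EBP consensus TTGCNNAA, the STAT consensus TTCNNNGAA, the cAMP response element (CRE) core TGACG bound by CREB and ATF proteins, the CCAAT box and the TATA box TATAAA. No matches overlapped in the 3 windows.
Cebpa: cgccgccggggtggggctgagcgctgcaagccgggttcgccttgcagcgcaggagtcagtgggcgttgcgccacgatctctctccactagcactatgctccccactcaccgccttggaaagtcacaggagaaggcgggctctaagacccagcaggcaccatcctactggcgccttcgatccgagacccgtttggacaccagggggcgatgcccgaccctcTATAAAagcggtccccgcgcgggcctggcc
Cebpb: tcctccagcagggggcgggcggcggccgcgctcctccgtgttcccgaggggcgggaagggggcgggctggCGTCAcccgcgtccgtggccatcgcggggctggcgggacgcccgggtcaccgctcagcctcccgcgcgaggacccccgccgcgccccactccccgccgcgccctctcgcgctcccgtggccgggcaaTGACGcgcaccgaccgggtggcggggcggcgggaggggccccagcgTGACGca
Cebpg: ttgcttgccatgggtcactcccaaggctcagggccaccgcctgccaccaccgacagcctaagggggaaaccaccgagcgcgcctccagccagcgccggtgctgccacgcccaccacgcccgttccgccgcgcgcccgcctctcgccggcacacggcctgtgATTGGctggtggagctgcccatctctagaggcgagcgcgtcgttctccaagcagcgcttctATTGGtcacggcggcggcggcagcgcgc
The *Cebpa* window held a TATA box that begins 30 bases before the start and none of the other motifs. The *Cebpb* window, with a GC content of 81.6%, held 3 CRE cores, at 180 bases (minus strand), 53 bases and 7 bases before the start. The *Cebpg* window held 2 CCAAT boxes on the minus strand, at 89 and 28 bases before the start. Of all 32851 promoters in the table, 17.8% held the CRE core, 33.9% the CCAAT box, 12.4% the TATA box, 9.56% the C/EBP consensus and 7.02% the STAT consensus. Among the 9265 genes compared that have an entry the shares were 29.8% for the CRE core, 40.02% for the CCAAT box, 8.42% for the TATA box, 9.20% for the C/EBP consensus and 7.48% for the STAT consensus. These are matches of letters in a short window and describe no binding.

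Levels can be compared between genes only per length, and RPKM put the 4 genes in a different order from RPM. In WT *Cebpd* stood at 41.1 RPKM, *Cebpb* at 38.5 RPKM, *Cebpg* at 29.4 RPKM and *Cebpa* at 10.02 RPKM. In *Igfbp7*-/- the order was *Cebpb* at 75.3 RPKM, *Cebpd* at 63.2 RPKM, *Cebpg* at 35.5 RPKM and *Cebpa* at 11.1 RPKM. *Cebpd* and *Cebpb*, neighbours in both orders, thus changed places. In WT their RPKM ratio, *Cebpd* over *Cebpb*, was 1.07 (0.987 to 1.16), which did not separate them beyond the counting error of read pairs, though single reads gave 1.01 to 1.13. In *Igfbp7*-/- the ratio was 0.840 (0.792 to 0.891). The other neighbours in each order were apart by more than counting error. The place of *Cebpd* rests on the deposited length, which the annotation above does not share.

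The 4 genes together summed to 119 RPKM in WT and 185 RPKM in *Igfbp7*-/-, 1.56 times more. Within this sum *Cebpb* took 32.3% in WT and 40.7% in *Igfbp7*-/-. The share of *Cebpd* was 34.5% and 34.2%, that of *Cebpg* 24.7% and 19.2%, and that of *Cebpa* 8.42% and 5.98%. The balance between members of the family therefore moved towards *Cebpb*, with *Cebpd* at nearly the same share.

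The ratio of one C/EBP gene to another within a library does not depend on how the library is scaled, and all 6 pairs were compared. *Cebpb* over *Cebpa* was 3.84 in WT and 6.80 in *Igfbp7*-/-, a log2 change of 0.82 (0.61 to 1.04). *Cebpd* over *Cebpa* was 4.10 and 5.71, a log2 change of 0.48 (0.27 to 0.68). For *Cebpg* over *Cebpa*, the chromosomal neighbours, the values were 2.94 and 3.20, and the log2 change of 0.13 (-0.07 to 0.32) did not exceed counting error. *Cebpg* over *Cebpb* fell by 0.70 on the log2 scale (interval of the change -0.83 to -0.56), the widest shift after that of *Cebpb* over *Cebpa*. *Cebpd* over *Cebpb* fell by 0.35 (-0.49 to -0.20) and *Cebpg* over *Cebpd* also by 0.35 (-0.47 to -0.23). The difference of *Cebpb* from each of the other 3 genes was thus larger than the counting of reads gives.

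The remaining genes of the C/EBP name were measured too. *Cebpe*, a factor of granulocyte maturation, had 0 reads in both libraries, which allows levels of up to 0.0874 RPM (WT) and 0.0857 RPM (*Igfbp7*-/-). *Ddit3*, which encodes CHOP, a stress-induced partner that blocks DNA binding of C/EBP dimers at their usual sites, had 15.3 RPM in WT and 19.1 RPM in *Igfbp7*-/-, for a log2 ratio of 0.32 (0.08 to 0.56). *Cebpz* shares the name but has no bZIP domain, and had 41.0 RPM in WT and 57.0 RPM in *Igfbp7*-/-.

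Since bZIP proteins share partners, the C/EBP genes were set among 53 bZIP genes. By RPKM *Cebpb* ranked 16 in WT and 10 in *Igfbp7*-/-, *Cebpd* 14 and 12, *Cebpg* 20 and 19, and *Cebpa* 29 and 32. Of the 49 bZIP genes that passed the minimum, *Cebpb* had rank 7 by log2 ratio, *Cebpd* 10, *Cebpg* 28 and *Cebpa* 31. Among the other 45, 11 were higher by the ratio and 11 lower, where 21.4% of all genes compared were higher and 23.0% lower. The median log2 ratio of the 45 was 0.36. *Atf4*, the amino acid response factor and a partner of C/EBPγ, had the highest RPKM of the 53 in both libraries, and its level was 598 RPM in WT and 798 RPM in *Igfbp7*-/-, a log2 ratio of 0.41. *Nfil3*, a repressor of the same superfamily, had a log2 ratio of 0.46. Scaled to the reads on listed genes, 21 of the 45 were higher and 7 lower, where 30.3% of all genes compared were higher and 18.4% lower under that scaling.

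**Figure D3:**
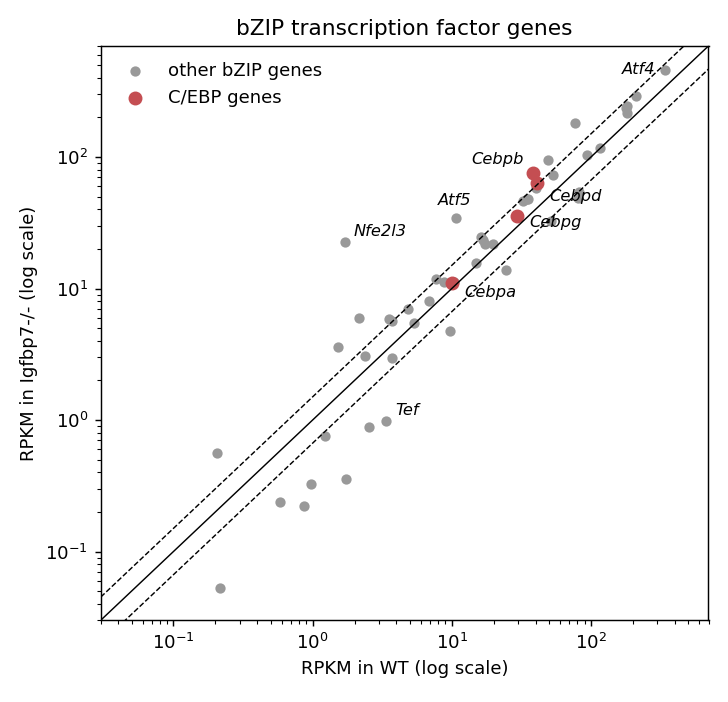
RPKM of bZIP genes in WT against *Igfbp7*-/-, both axes logarithmic, 1 point a gene, with the C/EBP genes in red, a solid line at equal levels and dashed lines at a ratio of 1.5 in each direction; genes at 0 in a library are not drawn. *Cebpb* (38.5 and 75.3 RPKM) and *Cebpd* (41.1 and 63.2 RPKM) lay above the upper dashed line, and *Nfe2l3* was farthest from the solid line.

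Interleukin-6 family cytokines signal through gp130 and STAT3, which drives *Cebpd* and *Cebpb* transcription. Of 18 genes of this pathway 17 passed the minimum, and 4 were higher and 5 lower in *Igfbp7*-/-. Of all genes compared, 21.4% were higher and 23.0% lower. The median log2 ratio of the 17 was -0.26. *Il6* itself, a cytokine gene that is also a C/EBPβ target, had 260.0 RPM in WT and 55.9 RPM in *Igfbp7*-/-, a log2 ratio of -2.22. *Osmr*, the oncostatin M receptor, had 528 and 297 RPM and a log2 ratio of -0.83. In the other direction *Lif*, a STAT3-activating cytokine of involution, had 35.6 RPM in WT and 63.7 RPM in *Igfbp7*-/-, a log2 ratio of 0.84. The receptor chain *Il6ra* had 35.2 and 66.4 RPM (0.91) and the kinase *Tyk2* 11.6 and 23.5 RPM (1.01). The shared components differed by less than 1.5 times: *Il6st*, which encodes gp130, had 456 and 448 RPM, *Stat3* 427 and 471 RPM, and *Socs3*, the STAT3-induced inhibitor, 127 and 114 RPM. The pathway held genes in both directions, as did all genes compared, and counts of mRNA do not measure STAT3 phosphorylation.

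Genes of the acute phase and of early involution, several of them known C/EBPβ or C/EBPδ targets, were mostly higher in *Igfbp7*-/-. Of 18 such genes, all past the minimum, 14 were higher and 0 lower, against 21.4% and 23.0% of all genes compared. Their median log2 ratio was 1.29. The list was chosen with earlier results of these data known, so these values describe it and do not test it. Among the serum amyloid genes, *Saa1*, with the highest ratio of the list, stood at 75.4 RPM in WT and 553 RPM in *Igfbp7*-/- (log2 ratio 2.87), and *Saa3* at 84.3 and 381 RPM (2.18). *Saa1* and *Saa2* are near-identical copies, and how reads matching both were counted is not given in the sources used here. *Lrg1*, a secreted glycoprotein induced by STAT3, had 13.9 and 66.8 RPM (2.25). *Igfbp5*, an involution gene that binds insulin-like growth factors, had 250 and 763 RPM (1.61), and *Clu*, a secreted chaperone, 253 and 745 RPM (1.56). *Hp*, *Trp53*, *Bak1* and the C/EBPδ-linked *Cd14* did not reach the ratio, with log2 ratios of -0.36, -0.10, -0.56 and 0.53. *Hp* encodes the acute phase protein haptoglobin, and *Trp53* and *Bak1* are apoptosis genes placed downstream of C/EBPδ.

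The C/EBP consensus was found in the promoter window of 8 of the 12 acute phase and involution genes that have an entry. Among genes compared that have an entry the share was 9.20%. The list includes known C/EBP targets and was chosen with earlier results of these data known. The contrast therefore describes the list and tests nothing. The near-identical copies *Saa1* and *Saa2* are each counted among the 8. Lists that were mostly lower in *Igfbp7*-/- varied. The match was in 4 of 11 adipocyte differentiation genes and in 4 of 8 adipocyte markers with an entry, the same 4 genes. It was also in 4 of 10 neutrophil, 2 of 4 fibroblast and 2 of 7 macrophage markers. Basal epithelium, endothelium and lymphocyte markers held none, with 4 entries each. Of the genes holding it in these lists, *Cidec* (log2 ratio -2.05), *Cd68* (-1.31), *S100a9* (-1.24), *Ngp* (-0.75) and *Fcgr3* (-0.75) were lower. *Lep* (1.06) was higher, and the others stayed within the ratio or below the minimum. Whether the match goes with a direction was not tested. Windows of 40 bases around the match are shown for genes whose levels are given here, with *Il6* first, in capitals for the match and 5′ to 3′ on the strand of the gene (GRCm38.p6). The positions are chr5:30012970-30013009 for *Il6* (plus strand), chr7:46743139-46743178 for *Saa1* (minus), chr7:46751634-46751673 for *Saa2* (plus) and chr7:46715752-46715791 for *Saa3* (minus).
Il6: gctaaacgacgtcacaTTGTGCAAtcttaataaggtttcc
Saa1: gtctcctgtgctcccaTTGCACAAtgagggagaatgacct
Saa2: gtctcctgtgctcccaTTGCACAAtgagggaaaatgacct
Saa3: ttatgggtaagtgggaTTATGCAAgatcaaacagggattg
*Il6*, with the match 128 bases before its start, was lower in *Igfbp7*-/-, while the *Saa* genes, with matches between 99 and 183 bases before their starts, were higher. *Saa2*, whose window is nearly that of *Saa1*, had 113 RPM in WT and 529 RPM in *Igfbp7*-/-. *Lrg1*, *Igfbp5*, *Trp53* and *Bak1* held no match in these windows, and *Lcn2*, *Ltf*, *C3*, *Cp* and *Orm2* held one. No occupancy of these sites was measured.

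Milk protein genes, at which C/EBPβ acts with STAT5 and the glucocorticoid receptor, differed in the opposite direction from *Cebpb*. All 7 were lower in *Igfbp7*-/-, where 23.0% of all genes compared were lower, and their median log2 ratio was -1.38. *Csn2*, β-casein, had 53087 RPM in WT and 19970.1 RPM in *Igfbp7*-/- (log2 ratio -1.41). *Wap*, whey acidic protein, had 13731 and 3866 RPM (-1.83), and *Lalba*, α-lactalbumin, 401 and 189 RPM (-1.08). None of the 5 milk protein genes with a promoter entry held the C/EBP consensus in the window. Only exact matches to TTGCNNAA within 250 bases were searched, so C/EBP sites of other letters or farther away would be missed.

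Of 10 genes for hormone receptors and transcription factors that regulate milk protein genes alongside C/EBPβ, 1 was higher and 1 lower. The shares of all genes compared were 21.4% higher and 23.0% lower. *Prlr*, the prolactin receptor, had 30.2 RPM in WT and 103 RPM in *Igfbp7*-/- (log2 ratio 1.76). *Stat5a*, which prolactin activates, had 64.8 and 31.4 RPM (-1.04). *Elf5*, the alveolar transcription factor, had 137 and 95.9 RPM (-0.52), and *Nr3c1*, the glucocorticoid receptor, 175 and 220.0 RPM (0.33). The other 8 genes of the list, *Elf5* and *Nr3c1* among them, stayed within the ratio.

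C/EBP proteins are controlled after transcription by degradation, phosphorylation and the choice of start codon. Among 18 genes with such roles 2 were higher and 0 lower, against 21.4% and 23.0% of all genes compared. Their median log2 ratio was -0.11, which turned to 0.08 when libraries were scaled to the listed genes, with 4 higher (30.3% of all genes compared). *Trib3*, a pseudokinase induced by stress, had 17.7 RPM in WT and 47.0 RPM in *Igfbp7*-/- (log2 ratio 1.41), and *Celf1*, an RNA-binding protein that acts in translation of *Cebpb* mRNA, 37.9 and 60.7 RPM (0.68). *Trib1*, which with the ubiquitin ligase COP1 targets C/EBPα for degradation, had 323 and 316 RPM. *Trib2*, with the same role, had 18.5 and 15.05 RPM. The ubiquitin ligase genes *Siah2* and *Fbxw7*, linked to C/EBPδ turnover, had log2 ratios of -0.39 and 0.58. The translation factor gene *Eif4e* (-0.52) and *Calr* (-0.45), whose product binds C/EBP mRNA, stayed within the ratio. Protein levels of the C/EBP factors and the proportion of *Cebpb* isoforms were not measured here.

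ATF4, with C/EBPγ among its partners, drives amino acid transport and synthesis genes. Of 18 such genes 3 were higher and 1 lower, against 21.4% and 23.0% of all genes compared, with a median log2 ratio of 0.21. Scaled to the listed genes 5 were higher, a scaling under which 30.3% of all genes compared were higher. *Asns*, asparagine synthetase and a standard ATF4 target, had 139 RPM in WT and 164 RPM in *Igfbp7*-/- (log2 ratio 0.23), close to the values of *Cebpg*. *Chac1*, a glutathione-degrading enzyme, had 17.6 and 35.8 RPM (1.02), and *Slc7a5*, an amino acid transporter, 112 and 190 RPM (0.76). *Cth*, which makes cysteine, had 16.1 and 5.77 RPM (-1.46).

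C/EBPα and PPARγ act together in adipocytes. Of 16 adipocyte differentiation genes 13 passed the minimum, and 7 were lower and 2 higher, against 23.0% and 21.4% of all genes compared. Their median log2 ratio was -0.90, whereas *Cebpa* had a log2 ratio of 0.14. *Fabp4*, a fatty acid carrier, had 543 RPM in WT and 173 RPM in *Igfbp7*-/- (-1.65), *Adipoq*, adiponectin, 5.59 and 0.9995 RPM (-2.37), and *Lpl*, lipoprotein lipase, 816 and 342 RPM (-1.25). *Pparg* had 55.6 and 40.7 RPM (-0.45), and *Lep*, leptin, 8.04 and 16.8 RPM (1.06). Of 8 adipocyte markers that passed the minimum 5 were lower and 1 higher. The sum over all 11 listed was 656 RPM in WT and 256 RPM in the knockout library. Most of this sum was *Fabp4*, with 543 and 173 RPM. None of the 11 was at 0, though *Plin1* had only 9 reads in WT and 2 in the knockout library. Neutrophils, which also use C/EBP factors, had 4 of 6 markers lower and a sum of 54.8 and 41.4 RPM over 10, with *Ly6g* at 0 reads in WT. *Cebpb* and *Cebpd* thus differed in the direction of the luminal marker sum and against the sums of the other marker lists. Within the luminal list *Elf5* (log2 ratio -0.52) differed in the opposite direction from the sum. The part of cell composition in the *Cebpb* and *Cebpd* values was not tested.

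**Figure D4:**
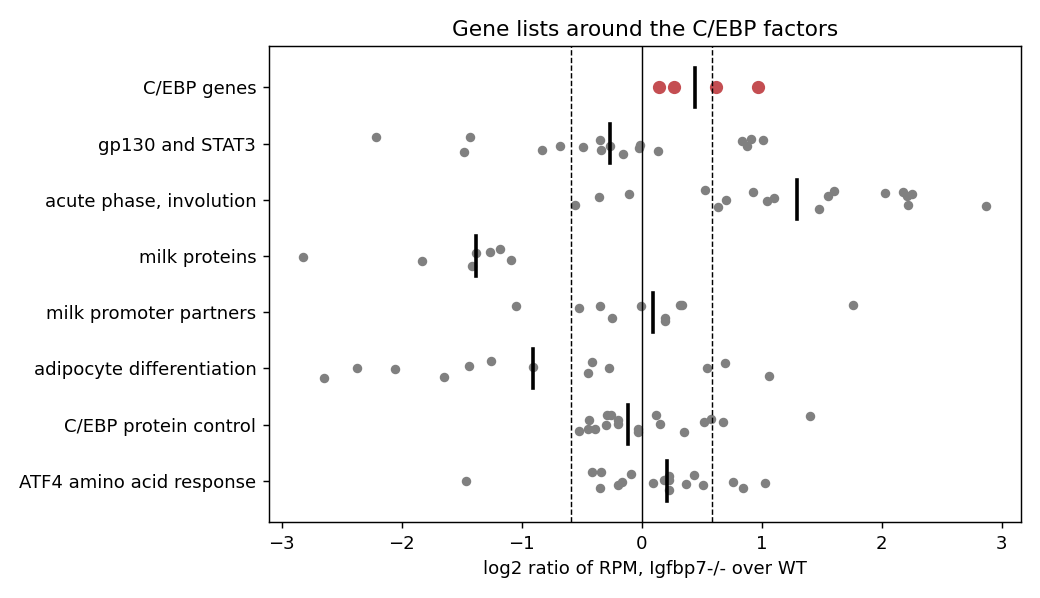
The log2 ratio of RPM, *Igfbp7*-/- over WT, of each gene past the minimum in the lists around the C/EBP factors, with 1 point a gene, C/EBP genes in red, black bars at the median of each list and dashed lines at a ratio of 1.5 in each direction. Acute phase and involution genes had a median of 1.29 and milk protein genes of -1.38, on either side of the C/EBP genes (0.45).

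Genes with levels most like those of each C/EBP gene were found by the distance between log2 levels, over only 2 libraries. *Tnk2*, with 56.7 RPM in WT and 115 RPM in *Igfbp7*-/-, was nearest to *Cebpb* (distance 0.0386), followed by *Flii* and *Pkp3*. *Kdm5c*, with 91.7 and 143 RPM, was nearest to *Cebpd* (0.0182), followed by *Cnot1* and *Eif2c2*. The amino acid response gene *Asns* was nearest to *Cebpg* (0.0325), followed by *Arhgdia* and *Larp4*. *Slc25a39* was nearest to *Cebpa* (0.0157), followed by *Flrt3* and *Wbp11*. With so few libraries, likeness here means a similar pair of levels and nothing more.

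Scaling moved the log2 ratios of all 4 C/EBP genes together. By construction it applies a common factor to each library, so distances from the median gene hardly change. Against the reads on listed genes the median of all genes moved by 0.19 and the log2 ratios of *Cebpb*, *Cebpd*, *Cebpg* and *Cebpa* were 1.16, 0.81, 0.46 and 0.33. Relative to the median of all genes compared they were 0.94, 0.59, 0.24 and 0.11 under that scaling, and 0.93, 0.59, 0.23 and 0.11 with the deposited RPM. Among genes past the ratio, 48.2% were higher in *Igfbp7*-/- with the deposited RPM (3006 higher, 3231 lower) and 62.2% when scaled to the listed genes (4248 higher, 2587 lower).

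**Figure D5:**
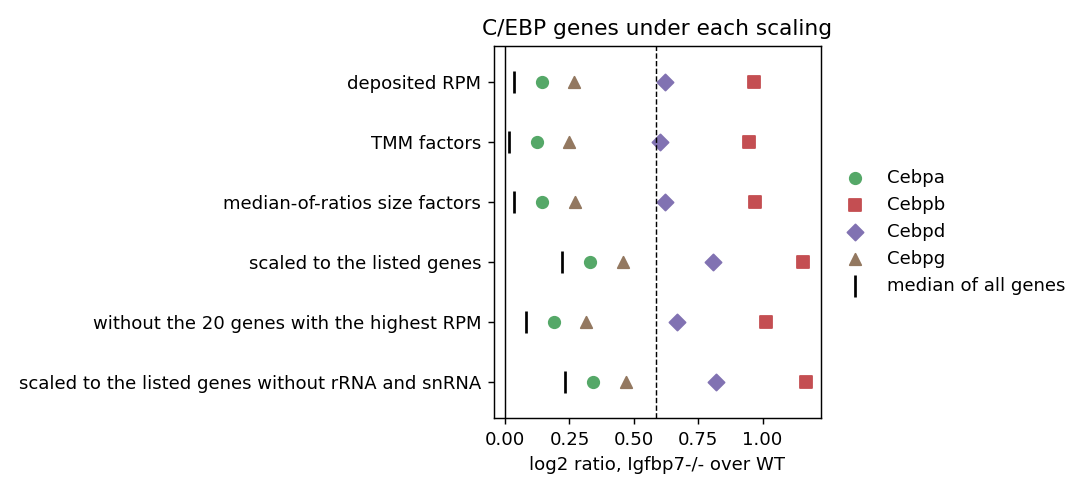
The log2 ratio, *Igfbp7*-/- over WT, of the C/EBP genes and of the median gene under 6 ways of scaling the libraries, with 1 row a scaling and a dashed line at a ratio of 1.5. *Cebpb* and *Cebpd* lay beyond the dashed line in all 6. The order of the 4 genes was the same in each by construction, since a scaling moves every log2 ratio by nearly one amount.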

How the data were processed

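Per the methods, the authors sequenced poly(A)-selected RNA on a SOLiD instrument as paired-end reads and mapped it with a Bowtie-based pipeline of the GeneSifter software. The submitters' processing notes name mm9, Bowtie 0.12.3 and SAMtools 0.1.15, whereas the methods name a human build, although mouse genes are listed. The annotation and the treatment of reads with several matches are not given in the sources used here. The authors deposited a raw read count per gene, the RPM (count over all mapped reads of the library, including reads outside listed genes) and the RPKM (RPM over a gene length they chose), the last being missing for 683 named genes. Ribosomal RNA, which the methods say was filtered, is still listed. A low share of reads on listed genes lowers every RPM of a library, and very abundant milk transcripts shift all others.

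Groups came from the genotype labels. Of 25860 rows, 50 without a symbol (0.0495% and 0.0670% of reads) were left out. Low counts were mostly even (75.8% and 74.1% of counts from 1 to 20), so intervals used pairs, counts divided by 2: Clopper-Pearson for a ratio, Poisson for a level, Woolf for a ratio of 2 C/EBP genes. They leave out the pseudocount. A count of 0 allows up to 3 reads. The count model test of a replicated design was not run. The C/EBP genes and the lists were chosen with earlier results of these data known, so the lists describe and do not test. In each list the genes named were a few chosen for their role and, among those of at least 10 RPM, the 3 highest and 3 lowest ratios, though not all are printed. *Saa2*, *Nfil3*, *Ly6g*, the Fos and Jun genes and the genes named for a promoter match are named besides. *Cop1* and *Adgre1* were matched as *Rfwd2* and *Emr1*.

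Alternatives were pseudocounts of 1 and 0.01 RPM, TMM factors (edgeR 4.0.16), median-of-ratios factors (DESeq2 1.42.0), reads on listed genes, omission of the 20 most abundant genes, RPKM, intervals on single reads, other minimums and a ratio of 2, and, chosen after seeing the data, listed genes less ribosomal and small nuclear RNA, and single-read intervals for ratios between C/EBP genes. Scripts (Python 3.11.15, pandas 2.3.3, scipy 1.17.1) were tested on simulated data.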

Additional observations from a re-analysis of the deposited data

How the results depend on the processing

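No paired analysis was possible because each genotype had 1 library, and for the same reason no library could be left out. The log2 ratios of the 4 C/EBP genes and the changes of their 6 pairs kept their direction under the alternatives run. Among all genes past the ratio, fewer were higher than lower with the deposited RPM (3006 and 3231), but more were higher when scaled to the listed genes (4248 and 2587), with these less ribosomal and small nuclear RNA (4348 and 2551), without the 20 most abundant genes (3327 and 3081) and with 10 RPM in a library (1696 and 1672). Scaled to the reads on listed genes, the log2 ratios of *Cebpa*, *Cebpb*, *Cebpd* and *Cebpg* were 0.33, 1.16, 0.81 and 0.46, against 0.14, 0.97, 0.62 and 0.27 with the deposited RPM. Without ribosomal and small nuclear RNA among the listed genes, an alternative chosen after seeing the data, they were 0.34, 1.17, 0.82 and 0.47, and 63.0% of genes past the ratio were higher. By construction these 2 scalings raise every ratio by nearly one amount. With no minimum 4741 genes were higher and 5279 lower, and at a ratio of 2 the counts were 1352 and 1936, since no minimum admits more genes, and a minimum of 10 RPM or the higher ratio fewer. *Cebpb* and *Cebpd* passed 1.5 in every scaling. With the deposited RPM 0 of the 4 genes passed a ratio of 2, whereas *Cebpb* passed it in both listed-gene scalings and without the 20 most abundant genes (log2 ratio 1.01). Relative to the median gene of those with 10 RPM or more, *Cebpd* was 1.48 times higher. The depth of *Cebpa* (912 and 1028 reads) leaves differences within its interval undetectable. On single reads, the interval of *Cebpa* was 0.01 to 0.27 and excluded 0, and that of *Cebpd* over *Cebpb* in WT, chosen after seeing the data, was 1.01 to 1.13 and excluded 1.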

Other observations

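Some other bZIP genes had larger differences than *Cebpb*, and further ones are given for comparison. *Nfe2l3*, a relative of the antioxidant factor NRF2, had 4.34 RPM in WT and 57.9 RPM in *Igfbp7*-/-, which gave a log2 ratio of 3.71 (3.40 to 4.11), the highest of the 49 bZIP genes that passed the minimum. *Atf5*, a stress factor related to ATF4, had 19.8 and 63.2 RPM (1.67) and *Atf7* 6.15 and 17.0 RPM (1.45). On the lower side, *Tef*, a PAR bZIP factor of circadian output, had 14.5 and 4.23 RPM (-1.75), and *Crem*, a cAMP-responsive factor, had 27.3 and 13.2 RPM (-1.04). *Creb3l2*, an endoplasmic reticulum factor, had 80.9 and 45.9 RPM (-0.82). The AP-1 genes *Fosb* (log2 ratio 1.25) and *Junb* (0.94) were chosen after their values were seen. *Junb* was close to *Cebpb* (0.97), and *Fosb* stood above it. Of the other Fos and Jun genes, *Fosl2* (0.51), *Fos* (0.45), *Jund* (0.44) and *Jun* (0.43) stayed within the ratio. *Fosl1* (-0.67) was lower.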
